A study of Homo sapiens with 8 samples.

Results

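The cyclin and cyclin-dependent kinase (CDK) sgRNAs of the PRMT5 screen numbered 175, among 10429 sgRNAs in all, and targeted 25 of 1420 genes with 7 sgRNAs each. They were chosen by gene name alone and took in all 25 genes of the table whose symbols begin with CDK or CCN, *CDK5R1* included. The naming rule also covered *CDC7*, *WEE1* and *PKMYT1*, for which the table held 0 sgRNAs. An sgRNA directs Cas9 to its target gene, and its abundance, a share of reads, stands in for the share of sorted cells that carried it. Editing of the targets was not measured in these data.

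The sgRNAs were read in platinum-resistant COV362 cells, an established line of high-grade serous ovarian cancer, listed as wild type and made to express Cas9. PRMT5hi and PRMT5lo cells, those that stained most and least for the arginine methyltransferase PRMT5, were sorted from the same cultures and gave 4 libraries each. All cells of both populations carried Cas9 and an sgRNA of the library, and the replicate cultures were split from the same transduced and selected cells. The sgRNA makeup at the start of the culture was not analysed here.

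CDKs are kinases that work only when bound to a cyclin or a similar activator. One branch drives the cell cycle: CDK4 and CDK6 with D cyclins pass cells out of G1, CDK2 with E and A cyclins carries them through S phase, and CDK1 with A and B cyclins takes them into mitosis. The other branch acts on RNA polymerase II: CDK7 within TFIIH, CDK8 and CDK19 within the Mediator kinase module, CDK9 with cyclin T1 as P-TEFb, and CDK13 with cyclin K. CDK7 also activates the cell-cycle CDKs, so it belongs to both branches by function.

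Abundance is given in CPM, reads scaled to a common total and averaged by the authors over the 4 libraries of a population, and the error of a CPM value is the standard error (SE) from the deposited variance. The log2 ratio is log2 of CPM + 1 in PRMT5hi over CPM + 1 in PRMT5lo, so it is positive where PRMT5hi cells held more of the sgRNA. The columns carry no population names, and the direction of every ratio follows the legend of the screen, while the methods text gives the opposite sign. The depth recovered from the variances was 4041715 reads per PRMT5hi library and 4779349 per PRMT5lo library, about 388 and 458 reads per sgRNA. Reads were not tied to single molecules, so this depth bounds counting error and nothing else. The SD quoted beside a gene mean describes its 7 sgRNAs, which share a target and the same cultures and are no replicates of a condition. Since values of single libraries were pooled, no exact or permutation test over libraries was possible.

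No member gene was called in either direction. Of the 25 genes, 0 passed the study's limits toward PRMT5hi, a p under 0.01 and a log2 ratio above 0.25, where 12 of all 1420 genes (0.845%) did. The limits were applied to recomputed values, a one-sided p by the CB2 procedure with Fisher's method and the mean log2 ratio. The study names neither a one-sided p nor Fisher's method, so these calls are not its own. Toward PRMT5lo, with a mean below -0.25, 0 passed as well, where 10 of all genes (0.704%) did, and with the stricter p limit of 0.001 that the methods name for PRMT5lo the members' count was also 0. At a one-sided p under 0.05 without the ratio limit, *CCNA2* passed toward PRMT5hi (1 of 25, 4.0%, against 9.30% of all genes) and *CDK16* and *CCNT1* toward PRMT5lo (2 of 25, 8.0%, against 8.59%). With Stouffer's method 0 genes were called in either direction. The smallest p of a member after Benjamini-Hochberg adjustment over all genes was 0.502 toward PRMT5hi and 0.322 toward PRMT5lo. For scale, the highest mean of all genes was 0.62, that of *KEAP1*.

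Member gene means ran from -0.26 to 0.32, with a median of 0.0030 against 0.0033 over all genes. Their SD was 0.13 over the 25 genes and 0.12 over all genes. Of the members 13 lay above 0 and 12 below, where 51.5% of all genes lay above. Agreement among the sgRNAs of a gene was counted next: 0 members had all 7 sgRNAs on one side (2.12% of all genes with 7 sgRNAs did), and 4 of 25 had at least 6 (16.0%, against 13.4%). These were *CCNA2* and *CDK5* toward PRMT5hi, and *CDK4* and *CCNE2* toward PRMT5lo.

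Among single sgRNAs, 13 of 175 (7.43%) had a one-sided p under 0.05 toward PRMT5hi, against 6.0% of all targeting sgRNAs, and 11 (6.29%) toward PRMT5lo, against 5.66%. After adjustment over all 10429 sgRNAs, 0 members passed a two-sided adjusted p of 0.05 in either direction, where 0.0192% and 0.0288% of sgRNAs passed toward PRMT5hi and PRMT5lo. In several genes, among them *CCNA1*, *CCND2*, *CCNE1*, *CDK16* and *CDK2*, sgRNAs against the same gene passed p under 0.05 in opposite directions. The share of all genes with such sgRNAs was not counted, so this is not given as a trait of the members.

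Cell-cycle and transcriptional CDKs were then set side by side. The 4 cell-cycle CDKs averaged -0.00034 (SD 0.19 over genes) and the 5 transcriptional CDKs 0.01 (SD 0.12 over genes). The difference of -0.01 had an SE of 0.092 and a 95% interval of -0.19 to 0.17, both from the variances over the libraries and with sgRNAs taken as independent. By library variance alone, the interval leaves room for a difference of up to 0.19 log2 units, which these data could not resolve. It leaves out the spread among sgRNAs and among genes, so larger differences are not excluded either. With CDK7 counted among the cell-cycle CDKs, the difference was -0.0031. With the median over sgRNAs in place of the mean, the cell-cycle CDKs averaged -0.13 and the difference was -0.12.

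*CDK2*, the S-phase kinase, had the highest mean of the cell-cycle CDKs and the widest spread of all 25 genes. Its sgRNAs 1 to 7 had log2 ratios of 1.33, -0.43, -0.95, -0.01, -0.20, 0.69 and 0.91. They stood at 8.31 to 52.5 CPM in PRMT5hi cells (median 30.0) and at 2.70 to 102 CPM in PRMT5lo cells (median 24.6). The ranges overlapped, and 3 of the 7 sgRNAs were more abundant in PRMT5hi. sgRNA 1 was measured at 8.31 ± 3.93 CPM in PRMT5hi and 2.70 ± 1.59 CPM in PRMT5lo, about 34 and 13 reads per library, and its log2 ratio of 1.33 was the largest among the members, with an SE of 0.87. sgRNA 7 leaned the same way with 30.0 ± 6.54 CPM in PRMT5hi and 15.5 ± 3.49 CPM in PRMT5lo. sgRNA 3 leaned the other way with 52.5 ± 7.74 CPM in PRMT5hi and 102 ± 2.30 CPM in PRMT5lo, a log2 ratio of -0.95 that was the lowest among the members. The mean of 0.19 (SD 0.81, 95% interval -0.23 to 0.61) therefore averaged sgRNAs that disagreed, and the PRMT5lo value of sgRNA 3 had the smallest variance the authors' method allows. *CDK2* lies on chromosome 12 of GRCh38 from 55966830 to 55972789.

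*CDK4*, one of the G1 kinases bound by D cyclins, had the lowest mean of the 25 genes, -0.26 (SD 0.32, 95% interval -0.49 to -0.03), with 6 of 7 sgRNAs more abundant in PRMT5lo. The interval leaves out the spread among these sgRNAs, which the SD gives. From sgRNA 1 to sgRNA 7 the log2 ratios were -0.72, -0.23, -0.33, 0.27, -0.0067, -0.40 and -0.40. The sgRNAs stood at 39.0 to 101 CPM in PRMT5hi cells (median 62.4) and at 64.3 to 84.8 CPM in PRMT5lo cells (median 73.5). sgRNA 1 had the lowest ratio, with 39.0 ± 9.95 CPM in PRMT5hi and 65.0 ± 7.95 CPM in PRMT5lo (log2 ratio -0.72, SE 0.40). sgRNA 4 was the exception, with 101 ± 2.49 CPM in PRMT5hi and 83.4 ± 9.81 CPM in PRMT5lo. By Fisher's method the one-sided p toward PRMT5lo was 0.0567 (adjusted p = 0.608). It ran from 0.0274 to 0.148 with each sgRNA left out in turn, and *CDK4* was the only member with a mean below -0.25 (4.0%, against 2.04% of all genes). *CDK4* lies on chromosome 12 from 57747727 to 57752310.

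*CDK6*, the other G1 kinase bound by D cyclins, had a mean of 0.08 (SD 0.32) that came from 1 sgRNA. sgRNA 4 stood at 61.6 ± 3.0 CPM in PRMT5hi and 36.2 ± 4.47 CPM in PRMT5lo, a log2 ratio of 0.75 (SE 0.19, with an adjusted p of 0.303 over all sgRNAs). Without it the other sgRNAs averaged -0.03. For *CDK1*, the mitotic kinase, the mean was -0.02 (SD 0.26) and its 95% interval -0.39 to 0.36, and 3 of its 7 sgRNAs leaned to PRMT5hi. Of these 7, 2 lay under 20 CPM.

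Of the transcriptional CDKs, *CDK13*, which acts on the polymerase during elongation, had the highest mean, 0.16 (SD 0.28). In order of sgRNA number its log2 ratios were -0.15, 0.57, 0.32, -0.06, -0.14, 0.19 and 0.39. Its sgRNAs ranged from 39.1 to 207 CPM in PRMT5hi cells (median 65.9) and from 26.1 to 228 CPM in PRMT5lo cells (median 73.4), and 4 of 7 were more abundant in PRMT5hi. The largest ratio was 0.57 (SE 0.34), from sgRNA 2 at 39.1 ± 6.76 CPM in PRMT5hi and 26.1 ± 4.42 CPM in PRMT5lo.

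*CCNT1*, the cyclin T1 subunit of P-TEFb, lay at the other end with a mean of -0.22 (SD 0.36, 95% interval -0.61 to 0.18). The log2 ratios of sgRNAs 1 to 7 were -0.48, -0.15, -0.36, -0.62, 0.20, 0.33 and -0.44. In CPM they stood at 21.8 to 97.1 CPM in PRMT5hi cells (median 31.2) and at 20.6 to 119 CPM in PRMT5lo cells (median 42.9), with 5 of 7 higher in PRMT5lo. sgRNA 7 had 87.2 ± 5.68 CPM in PRMT5hi and 119 ± 7.80 CPM in PRMT5lo, and sgRNA 1 had 61.8 ± 7.21 CPM in PRMT5hi and 86.4 ± 9.77 CPM in PRMT5lo. The p from Fisher's method was 0.0332 toward PRMT5lo (adjusted p = 0.508), and 0.198 without sgRNA 7. The mean of its kinase partner *CDK9* was -0.08 (SD 0.25), and 5 of 7 sgRNAs were higher in PRMT5lo. The *CDK9* log2 ratios, sgRNA 1 first, were 0.26, -0.20, -0.28, -0.02, -0.45, -0.05 and 0.16. *CCNT1* lies on chromosome 12 from 48688458 to 48716707 and *CDK9* on chromosome 9 from 127786034 to 127790792.

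The pair of Mediator kinases fell on either side of 0. *CDK19* averaged -0.13 (SD 0.17, 95% interval -0.30 to 0.03) and 2 of its 7 sgRNAs leaned to PRMT5hi. *CDK8* averaged 0.09 (SD 0.33, interval -0.08 to 0.25), and 4 of 7 leaned to PRMT5hi. The intervals overlapped. *CDK7* had a mean of 0.02 (95% interval -0.27 to 0.31) and the smallest SD over sgRNAs of all members, 0.14. Despite that small SD, the interval passed the study's ratio limit of 0.25 either way.

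Among the cyclins of S phase and mitosis, *CCNA2*, the A cyclin of dividing somatic cells, had the highest mean of the 25 genes. This mean was 0.32 (SD 0.45, 95% interval 0.04 to 0.60), a 1.25-fold sgRNA ratio when averaged on the log2 scale. In mean CPM its sgRNAs stood at 56.8 in PRMT5hi and 50.8 in PRMT5lo. As for *CDK4*, the interval leaves out the spread among sgRNAs, which the SD gives. The ratios of sgRNAs 1 to 7 were 0.43, 1.13, 0.35, 0.55, 0.00039, 0.03 and -0.23 on the log2 scale. The sgRNAs stood at 17.5 to 141 CPM in PRMT5hi cells (median 46.8) and at 7.44 to 138 CPM in PRMT5lo cells (median 47.0). The largest ratio, 1.13 (SE 0.68), came from its least abundant sgRNA, number 2, with 17.5 ± 4.94 CPM in PRMT5hi and 7.44 ± 3.26 CPM in PRMT5lo. sgRNA 3, with 60.2 ± 5.61 CPM in PRMT5hi and 47.0 ± 1.55 CPM in PRMT5lo, was the only one with a one-sided p under 0.05. Fisher's method gave p = 0.0413 toward PRMT5hi (adjusted p = 0.502). By the same method, without sgRNA 2 the mean was 0.19 with a p of 0.0851, and without sgRNA 3 the p was 0.113. *CCNA2* was also the only member with a mean above 0.25 (4.0%, against 2.54% of all genes) and lies on chromosome 4 from 121816444 to 121823883.

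*CCNA1*, the A cyclin known mainly from the germline, had a mean of 0.03 (SD 0.38) that hid opposite sgRNAs. sgRNA 7 had 87.1 ± 13.1 CPM in PRMT5hi and 56.8 ± 6.46 CPM in PRMT5lo, while sgRNA 2 had 49.7 ± 3.01 CPM in PRMT5hi and 68.6 ± 5.94 CPM in PRMT5lo. Of the B cyclins, the activators of CDK1 at mitosis, *CCNB2* had the lowest mean, -0.10 (SD 0.29), from log2 ratios of -0.15, -0.16, -0.19, 0.05, -0.64, 0.21 and 0.16 for sgRNAs 1 to 7. In CPM these stood at 49.5 to 311 CPM in PRMT5hi cells (median 113) and at 70.2 to 284 CPM in PRMT5lo cells (median 125). The lean of the mean rested on sgRNA 5, at 49.5 ± 4.84 CPM in PRMT5hi and 77.9 ± 1.98 CPM in PRMT5lo (an adjusted p of 0.396 over all sgRNAs). Without that sgRNA the mean was -0.01, while the median over all 7 sgRNAs was -0.15. *CCNB3*, a meiotic cyclin, had a mean of -0.0082 (SD 0.23). *CCNB1* averaged 0.04 (SD 0.29), and its log2 ratios were 0.40, -0.21, 0.38, 0.0072, 0.13, -0.34 and -0.12 for sgRNAs 1 to 7.

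The D and E cyclins, which start the cycle in G1, averaged 0.0044 over 5 genes. *CCND3* had the highest mean of them, 0.15 (SD 0.33), from sgRNAs of 64.3 to 136 CPM in PRMT5hi cells (median 98.0) and 39.0 to 140 CPM in PRMT5lo cells (median 96.0). Its ratio came from sgRNA 7, at 64.3 ± 14.8 CPM in PRMT5hi and 39.0 ± 8.58 CPM in PRMT5lo (log2 ratio 0.71, SE 0.45), and sgRNA 1, at 136 ± 9.21 CPM in PRMT5hi and 96.0 ± 16.6 CPM in PRMT5lo. In order of sgRNA number the 7 log2 ratios were 0.50, -0.24, 0.17, -0.0038, -0.02, -0.04 and 0.71, with a median of -0.0038.

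*CCND2* had the lowest mean of this group, -0.08 (SD 0.39), from sgRNAs of 42.6 to 174 CPM in PRMT5hi cells (median 111) and 74.6 to 175 CPM in PRMT5lo cells (median 99.0). sgRNA 1 stood at 42.6 ± 6.05 CPM in PRMT5hi and 80.9 ± 6.40 CPM in PRMT5lo, a log2 ratio of -0.91 (SE 0.23, with an adjusted p of 0.309). The other sgRNAs, with ratios of -0.03, 0.27, 0.01, -0.01, 0.20 and -0.10, averaged 0.06. *CCND1* averaged 0.03 (SD 0.30), from log2 ratios of 0.24, -0.40, 0.16, 0.29, 0.33, -0.12 and -0.32 for sgRNAs 1 to 7. *CCNE2* averaged -0.05 (SD 0.16), and 6 of its 7 sgRNAs leaned to PRMT5lo. *CCNE1* had a mean of -0.03 (SD 0.50) with sgRNAs on both sides. sgRNA 1 of *CCNE1* stood at 18.4 ± 4.99 CPM in PRMT5hi and 33.5 ± 3.04 CPM in PRMT5lo, against 57.1 ± 3.71 CPM in PRMT5hi and 46.6 ± 1.52 CPM in PRMT5lo for sgRNA 6.

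The remaining genes belong to neither branch. *CDK5*, best known in neurons, had the highest mean of them, 0.14 (SD 0.27, 95% interval -0.06 to 0.34), and 6 of its 7 sgRNAs leaned to PRMT5hi. By sgRNA number the log2 ratios were -0.39, 0.16, 0.44, 0.29, 0.04, 0.23 and 0.24. Its sgRNAs stood at 48.0 to 188 CPM in PRMT5hi cells (median 84.8) and at 39.0 to 159 CPM in PRMT5lo cells (median 66.4), none of them with a one-sided p under 0.05. *CDK5R1*, which encodes p35, the activator of CDK5, had a mean of 0.05 (SD 0.26). Its sgRNA 5 had 197 ± 3.48 CPM in PRMT5hi and 151 ± 8.54 CPM in PRMT5lo (log2 ratio 0.38, with an adjusted p of 0.415), and without that sgRNA the mean was -0.0033.

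*CDK16*, a kinase activated by cyclin Y, had the smallest p of the members from a mean near 0. Its sgRNAs stood at 24.2 to 125 CPM in PRMT5hi cells (median 97.6) and at 41.3 to 152 CPM in PRMT5lo cells (median 86.7), with a mean log2 ratio of -0.05 (SD 0.44). By sgRNA number the ratios were -0.75, 0.41, -0.12, 0.05, 0.53, -0.33 and -0.19. sgRNA 1 had 24.2 ± 1.22 CPM in PRMT5hi and 41.3 ± 1.46 CPM in PRMT5lo, a log2 ratio of -0.75 (SE 0.09) with an adjusted p of 0.0765 over all sgRNAs, the smallest of the 175. Its variance was the smallest the authors' method allows in both populations, that of read counting alone. sgRNA 5 leaned the other way with 125 ± 15.7 CPM in PRMT5hi and 86.7 ± 2.12 CPM in PRMT5lo. Fisher's method gave p = 0.0102 toward PRMT5lo (adjusted p = 0.322), and p = 0.622 with a mean of 0.06 without sgRNA 1.

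*CDKL2*, a CDK-like kinase, had a mean of -0.04 (SD 0.22), with sgRNAs of 41.8 to 116 CPM in PRMT5hi cells (median 59.2) and 41.7 to 139 CPM in PRMT5lo cells (median 69.0), and ratios of 0.27, 0.10, 0.11, -0.26, -0.22, 0.0011 and -0.32 in order of sgRNA number.

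The members differed far more in abundance (SD 0.63 over genes) than in ratio (SD 0.13). The same held over all genes (SD 0.51 and 0.12), so it is no trait of the members. Abundance was taken as the mean over the 7 sgRNAs of log2(CPM + 1), averaged over both populations. The 25 genes ran from 4.63 to 7.06 with a mean of 6.08 (SD 0.63 over genes), against 6.31 (SD 0.51) over all genes and 6.87 for control sgRNAs. Among the 142 of 1420 genes of lowest abundance (10.0% by construction) lay 8 of the 25 (32.0%): *CDK2*, *CCNB1*, *CCND1*, *CDK9*, *CCNE1*, *CDK1*, *CCNA2* and *CCNT1*, in rising order. The same 8 genes lay there by PRMT5hi alone and by PRMT5lo alone, which were sorted from the same cultures and are no independent check on each other. Among the 142 genes of highest abundance lay 2, *CCNB2* and *CCNB3*. No test was made, since libraries were pooled by the authors and sgRNAs of a gene are not replicates. Whether low sgRNAs were lost in culture or rare in the library from the start cannot be told apart here.

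By branch, the 4 cell-cycle CDKs averaged 5.66 and the 5 transcriptional CDKs 6.13, a difference of -0.47. The spread within each branch was as wide as that difference (SD 0.81 over the cell-cycle CDKs and 0.54 over the transcriptional CDKs). *CDK2* at 4.63 and *CDK1* at 5.44 were low, whereas *CDK4* at 6.07 and *CDK6* at 6.49 stood closer to the median of all genes, 6.39. In the other branch *CDK9* at 5.38 was lowest, followed by its cyclin *CCNT1* at 5.56 and by *CDK7* at 5.82, while *CDK8* at 6.34, *CDK13* at 6.37 and *CDK19* at 6.76 were not low. The neighbours *CCND1*, *CDK9*, *CCNE1*, *CDK1* and *CCNA2*, from 5.35 to 5.46, lay within 1 SD over their sgRNAs of each other.

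Related cyclins differed in mean abundance, and in each family a single gene lay among the 142 lowest. *CCNB1*, at 5.14, differed by -1.89 log2 units from *CCNB2* and by -1.91 from *CCNB3*. *CCND1*, at 5.35, differed by -1.28 from *CCND2* and by -1.12 from *CCND3*. The difference was -0.89 between *CCNE1* and *CCNE2*, and -0.66 between *CCNA2* and *CCNA1*. In size, that of the E cyclins was below the SD of abundance over sgRNAs of *CCNE1* (1.33) and of *CCNE2* (1.22). That of the A cyclins was below the SD of *CCNA2* (1.04) but not of *CCNA1* (0.65). The differences of *CCNB1* and *CCND1* from their relatives exceeded the SDs of these genes (1.78 and 0.80). The sgRNAs of a gene overlapped with those of its relatives in every one of these families.

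Even in the low genes some sgRNAs were abundant. *CCNB1* ranged from 4.23 to 143 CPM in PRMT5hi cells (median 44.3) and from 5.07 to 143 CPM in PRMT5lo cells (median 36.2). Its sgRNA 2 had 4.23 ± 0.575 CPM in PRMT5hi and 5.07 ± 2.11 CPM in PRMT5lo, and its sgRNA 4 had 143 ± 5.75 CPM in PRMT5hi and 143 ± 21.5 CPM in PRMT5lo. *CDK1* ranged from 12.4 to 185 CPM in PRMT5hi cells (median 33.4) and from 9.56 to 177 CPM in PRMT5lo cells (median 37.8). *CDK9* ranged from 6.26 to 84.9 CPM in PRMT5hi cells (median 43.3) and from 5.06 to 87.8 CPM in PRMT5lo cells (median 55.7), and *CCND1* from 20.9 to 87.1 CPM in PRMT5hi cells (median 40.4) and from 16.4 to 75.4 CPM in PRMT5lo cells (median 50.4). The SD of abundance over sgRNAs was 1.78 for *CCNB1* and 1.48 for *CDK1*, against 0.43 for *CCNB3* and 0.27 for *CDK4*. sgRNAs under 20 CPM averaged over both populations numbered 11 of 175 (6.29%, against 3.38% of all targeting sgRNAs). They fell in *CDK1*, *CDK2* and *CCNB1* with 2 each, and in *CCNA2*, *CCND1*, *CCNE1*, *CDK7* and *CDK9* with 1 each.

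Ratios were less precise at low abundance. Of all targeting sgRNAs, the third of lowest abundance held 75 member sgRNAs (42.9%), whose log2 ratios had an SD of 0.44 and a median SE of 0.33, against 0.38 and 0.32 for all sgRNAs at that level. The 47 members in the third of highest abundance had an SD of 0.20 and a median SE of 0.18, against 0.21 and 0.17. Gene means had an SE from 0.063 for *CDK6* to 0.20 for *CDK2*, with a median of 0.11 against 0.10 over all genes. By library variance alone, the 95% interval of the mean lay within 0.25 either way for genes that included *CCNA1*, *CCNB3*, *CCNE2*, *CDK5R1* and *CDK6*. Spread among sgRNAs is not part of these intervals, so they do not exclude a mean past 0.25 for these genes. For 19 of the 25 genes, *CDK1*, *CDK2*, *CDK4* and *CDK9* among them, a mean past the study's ratio limit was not excluded even by library variance alone.

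Other cell-cycle genes of the library gave a similar picture. Of 14 such genes outside the naming rule, among them the Aurora kinases, *PLK1*, *PLK4*, *TTK*, *NEK2*, *CHEK1* and *CHEK2*, 0 passed the study's limits in either direction. Their means ran from -0.31 for *TTK*, a spindle checkpoint kinase, to 0.40 for *PLK1*, a mitotic kinase, with 7 above 0 and 7 below and a median of 0.00011. *NEK2*, a centrosomal kinase, met the p limit toward PRMT5hi by Fisher's method (p = 0.000993, adjusted p = 0.117) but not the ratio limit, with a mean of 0.22. The mean abundance of the 14 genes was 5.75.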

How the data were processed

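The authors mapped reads to the sgRNA library, counted them and compared the populations with CB2. FastQC and hg38 are named in the submitters' notes on processing. Versions are not given in the sources. Deposited CPM values are the authors' means over the 4 libraries of a population. Each deposited fraction is CB2's estimate of an sgRNA's share of reads, with its variance over the libraries. The columns carry no population names. They were assigned from the legend of the screen in the paper, which gives negative deposited values to sgRNAs enriched in PRMT5hi. The methods text states the opposite sign, and a p limit of 0.001 for PRMT5lo where the legend has 0.01; the legend was followed. The deposited log2 fold changes, scores and p-values of the authors, and the gene table, were not used.

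The t statistic of each sgRNA (fraction difference over its SE, degrees of freedom from both variances) was recomputed on the whole table in Python 3.11.15 with SciPy 1.17.1. Its one-sided p-values were combined per gene by Fisher's method and adjusted by Benjamini-Hochberg over 1420 genes, the 500 control sgRNAs apart. No statistic could be had for 2 sgRNAs, neither of them a member, and their p-values were set to 1. All p-values rest on cultures split from the same transduced cells. sgRNA SEs of log2 ratios come from the delta method, and 95% intervals from the t distribution. The intervals rest on the library variances alone and leave out the spread among sgRNAs of a gene. On simulated data with 200 of 1420 genes changed by 2-fold, 100 of 100 were recovered in each direction and 4 unchanged genes were called. Every sgRNA of a changed gene carried the full change there. Recovery of smaller changes, or of changes uneven over sgRNAs, was not tested. The smallest variance CB2 allows gave the depth, and was met by 18 member sgRNAs in PRMT5hi and 28 in PRMT5lo.

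Member genes are given by their means, and some results are not reported here. Given sgRNA by sgRNA are the genes with the highest ratio, lowest ratio and lowest abundance in each of 5 role groups, and the 5 highest and 5 lowest member ratios; the sgRNAs named besides these were picked with their values in view. RefSeq (GRCh38.p14) gave the gene coordinates, matched for all 25 symbols. The sgRNA sequences, target positions and cuts at related genes were not analysed here. Members and lists were chosen with earlier results of these data known.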

Additional observations from a re-analysis of the deposited data

How the results depend on the processing

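No paired analysis was possible because the values are pooled over the libraries of a population, so neither a replicate block nor leaving out a library could be run. The count of called members stayed at 0 in both directions with Stouffer's method, a p limit of 0.001, an adjusted p limit of 0.05, CPM + 5, CPM + 10, at least 20 CPM, centring on control sgRNAs, the median over sgRNAs and each sgRNA left out in turn. With a normal tail in place of the t distribution, which ignores that variances come from 4 libraries, 1 gene was called toward PRMT5hi (*CCNA2*, p = 0.00574 by Fisher's method) and 0 toward PRMT5lo. Over all genes that tail called 26 toward PRMT5hi and 20 toward PRMT5lo, where 12 and 10 were called with the t distribution. The counts over all genes were 3 and 0 with an adjusted p limit of 0.05, 5 and 2 with a p limit of 0.001, 9 and 4 with CPM + 10, and 7 and 13 with the median, each toward PRMT5hi and then PRMT5lo. Under the same tail 4 member sgRNAs (2.29%, against 2.54% of all sgRNAs) passed an adjusted p of 0.05 toward PRMT5hi and 6 (3.43%, against 2.54%) toward PRMT5lo. A one-sided p under 0.05 was met by 22 (12.6%, against 9.52% of targeting sgRNAs) toward PRMT5hi and 13 (7.43%, against 8.95%) toward PRMT5lo.

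The median over sgRNAs moved the mean of the cell-cycle CDKs to -0.13 and the difference from the transcriptional CDKs to -0.12, and the cause was not tested. The difference lay between -0.06 and -0.0031 under the other alternatives run. The abundance difference was -0.35 with at least 20 CPM and -0.52 with CDK7 among the cell-cycle CDKs. Signs of gene means turned in 9 of 25 genes with the median and in 11 with the most extreme sgRNA of each gene left out. A change of sign with a shift of over 1 SE was seen with the median for *CCNA1* (-0.078), *CCNB3* (0.102), *CCND3* (-0.0038), *CCNE1* (0.090), *CDK2* (-0.013) and *CDK6* (-0.00027), and, without the extreme sgRNA, for *CCNA1* (-0.065), *CCND2* (0.056), *CCNE1* (0.104), *CDK16* (0.060) and *CDK6* (-0.027). Depth limited sgRNAs under 20 CPM most: sgRNA 1 of *CDK2*, with the lowest CPM of the members in PRMT5lo, rested on about 34 reads per PRMT5hi library and 13 per PRMT5lo library.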
